A study of Homo sapiens with 6 samples.

Results

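The proteasome subunit genes are the protein-coding genes whose symbol is PSMA, PSMB, PSMC, PSMD, PSME, PSMF or PSMG followed by a number and nothing else. The rule found 45 such genes among the 19498 genes of the table, and all 45 were high enough to be tested. RNA was measured in 6 libraries of K562, a chronic myeloid leukaemia line that carries the BCR-ABL1 fusion, with 3 biological replicates labelled ACK KO and 3 labelled WT. ACK is the protein of TNK2, a tyrosine kinase that binds the GTPase CDC42. The cells of both groups were grown in RPMI-40 medium with 10% FBS and glutamine, and no treatment separates them. The sources used here do not give how the knockout was made or whether it is 1 clone, so a difference of genotype cannot be told apart from a difference between lines. In bulk RNA, fewer cells with a transcript and less of it per cell cannot be told apart either.

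The proteasome degrades proteins that carry ubiquitin chains. Its 20S core is a barrel of alpha-ring subunits (PSMA), which gate the entrance, and beta-ring subunits (PSMB), of which PSMB5, PSMB6 and PSMB7 cut the substrate. The 19S cap recognises and unfolds substrates with ATPases (PSMC) and non-ATPases (PSMD), the PSME proteins are other activators, PSMF1 is an inhibitor, and PSMG proteins with PSMD5, PSMD9 and PSMD10 help assembly. In the immunoproteasome, which interferon-gamma induces and which makes peptides for antigen presentation, PSMB8, PSMB9 and PSMB10 take the places of PSMB5, PSMB6 and PSMB7. Transcription of the subunits is known to be controlled together, with NFE2L1 as a main activator when proteasome activity is short.

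The table gives a normalised count for each gene, mostly not a whole number, and the read depth is unknown. They summed to 43.5, 49.5 and 47.3 M in KO-labelled libraries 1, 2 and 3, against 46.7, 53.3 and 50.3 M in WT libraries 1, 2 and 3. TNK2 itself was at 741, 506 and 598 in KO-labelled libraries, against 830, 613 and 642 in WT libraries (log2 difference -0.18, exact two-sided permutation p = 0.4, where the smallest possible is 0.1, and limma adjusted p = 0.207 with the replicate number as a block). TNK2 was lower in the KO-labelled library at each number but the groups overlapped, so the transcript level does not check the knockout, and the libraries are called by their labels throughout. Of 8 erythroid-lineage markers of K562, all were in the table, with sums of 57901 to 88149 in KO-labelled libraries and 51526 to 94324 in WT libraries. Among them HBE1, an embryonic globin, was at 9391, 10443 and 17322 in KO-labelled libraries, against 1386, 1031 and 1527 in WT libraries (3.20, limma adjusted p = 7.84e-04 without and 1.50e-05 with the block), and GATA1 at 6980.5, 7029.8 and 6863 in KO-labelled libraries, against 9877, 8842 and 8921 in WT libraries (-0.40, limma adjusted p = 0.0637 without and 0.00256 with the block). Neither overlapped between groups. TFRC was also lower in the KO-labelled library at each number, with overlapping groups (-0.52, limma adjusted p = 0.447 without and 0.0121 with the block). With the block 3 of the 8 passed, against 39.7% of all genes tested, and the other 5 passed in neither fit. Lymphoid markers (5 of 6 in the table) summed to 1003 to 1778 in KO-labelled and 519 to 1814 in WT libraries, most of it CD3D, and fibroblast and epithelial markers (3 of 6) to 4697.5 to 5282 in KO-labelled and 4368 to 5179 in WT libraries, mostly EPCAM. In that list COL1A1, a collagen gene of fibroblasts, was at 204, 74.6 and 121 in KO-labelled libraries, against 11.98, 4.68 and 32.2 in WT libraries, with no overlap (3.20, limma adjusted p = 0.0334 without and 0.00152 with the block). DCN, also in that list, overlapped between groups and was too low to be tested. It was at 3.97, 10.1 and 8.3 in KO-labelled libraries, against 11.6, 3.53 and 2.26 in WT libraries. EPCAM overlapped too and did not pass (0.04, limma adjusted p = 0.885 without and 0.721 with the block). The erythroid genes HBZ, HBG1 and TFRC were lowest in library 1 of each genotype, as most proteasome genes were. HBE1, GATA1, TFRC, COL1A1, DCN and EPCAM were named after their values were seen, and the part of these markers in the results was not tested. The first principal component, with 59.7% of the variance, separated the genotypes, and the second, with 26.8%, set both libraries numbered 1 apart. What a number marks is absent from the labels, but libraries of the same number deviated together in every pair (Pearson r = 0.699, 0.521 and 0.342 across genes for numbers 1, 2 and 3). KO-labelled library 3 with WT library 2 gave 0.281, and KO-labelled library 2 with WT library 3 gave 0.257. Deviations are from the mean of 3 libraries, so a shift of number 1 alone also moves numbers 2 and 3 together. The values thus set number 1 apart but hardly separate a pairing of numbers 2 and 3. Differences are therefore taken from limma on log2(value + 1) without and with that number as a blocking term, Benjamini-Hochberg adjusted over the 16658 genes tested, with 0.05 as the threshold. Differences are KO-labelled minus WT, and "rose" and "fell" are used of genes that passed with the block. A p-value here covers nothing beyond the spread among these 6 libraries.

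Most proteasome genes had lower values in the KO-labelled libraries, by modest amounts. The log2 difference was below 0 for 39 of 45 genes, against 51.6% of all genes tested, with a median of -0.21, against -0.02 for all genes tested. The differences ran from -0.75 for PSMB9 to 0.53 for PSMF1. Within same-numbered pairs, 33 of 45 genes were lower in the KO-labelled library in all 3 pairs, against 34.0% of all genes, and 5 were higher in all 3, against 31.8%. The members' median was -0.11, -0.25 and -0.30 in pairs 1, 2 and 3, where the median of all genes was -0.01, -0.03 and -0.01. Lower values were not particular to the proteasome. The CCT chaperonin genes, chosen after the members' values were seen, had a median of -0.40, and 7 of these 8 were lower in all 3 pairs. The 82 cytosolic ribosomal protein genes had a median of -0.14, and 69 of them were below 0.

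Without the block, limma called 0 of the 45 genes, against 10.3% of all genes tested (5.37% higher and 4.96% lower), and 3 of them (PSMF1, PSMG2 and PSMG4) had an unadjusted p under 0.05, against 23.8% of all genes. With the block, 21 fell and 2 rose (PSMF1 and PSMA7), while 22 did not pass. The background with the block was 39.7% of all genes in either direction, 20% lower (3337 genes) and 19.7% higher (3275 genes). The median of the 45 genes was 0.00 without KO-labelled library 1 and -0.51 without WT library 1. Without both of them it was -0.27, and 16 of the 45 genes passed lower and 1 higher in the fit with no block. Of all 16658 genes tested, 2292 passed lower and 2439 higher in that fit. With the block and equal library sums, 12 members passed lower and 5 higher, against 2379 lower and 4193 higher of all 16658 genes tested. That scaling put the median of all genes at 0.08 and of the members at -0.11.

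**Figure D1:**
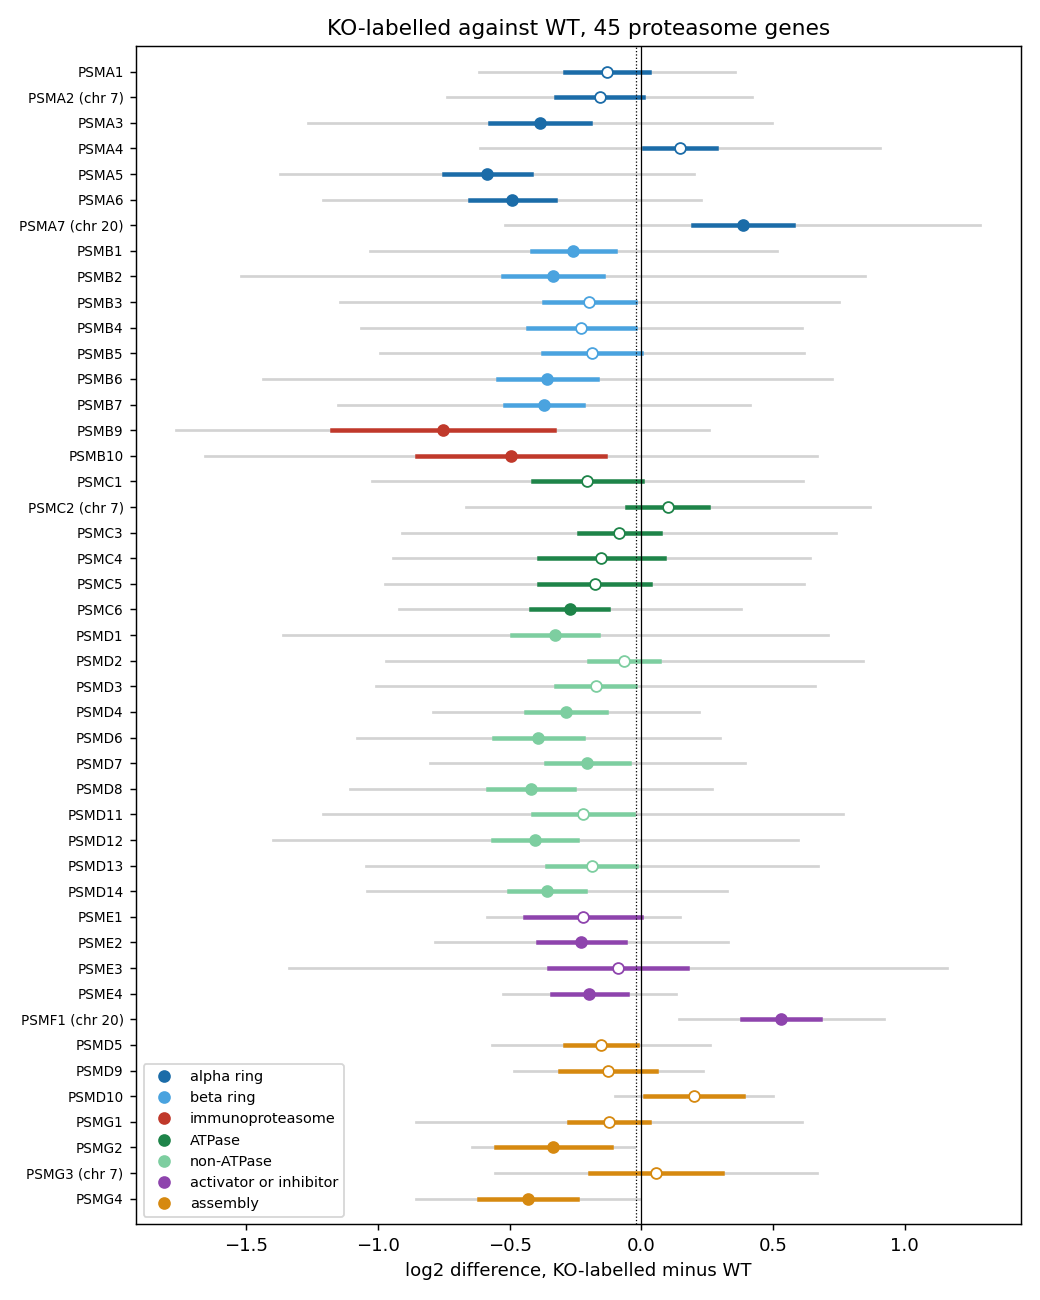
Log2 difference, KO-labelled minus WT, of each of the 45 proteasome genes (points), grouped by role (colours). Thick coloured lines are 95% intervals from the blocked fit and thin grey lines those from the fit without the block. Filled points passed with the block (21 lower, 2 higher), and the dotted line is the median of all genes tested, -0.02.

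The libraries numbered 1 stood apart from the others for most proteasome genes. In 41 of 45 genes the library numbered 1 was the lowest of its genotype in both genotypes, against 33.3% of all genes tested, and in 39 both number-1 libraries lay below all other 4 libraries, against 23.3%. All 14 constitutive core subunits and all 17 cap subunits were among the 39. The median gap of library 1 to the mean of libraries 2 and 3 was -0.69 on the log2 scale in KO-labelled libraries (1.61-fold) and -0.92 in WT libraries (1.89-fold), against 0.02 and 0.03 for all genes. It reached -1.17 in KO-labelled and -1.50 in WT libraries for PSMB2, a beta-ring subunit, and -1.12 and -1.67 for PSME3, the nuclear PA28-gamma activator (both named after their values were seen). PSMB9 was highest in number 1 in both genotypes, against 34.4% of all genes, while PSME1, PSMD10 and PSMG2 were low in number 1 in at most 1 of them. The chaperonin genes CCT, chosen as another assembly of many subunits after the members' values were seen, had median gaps of -0.77 and -0.85 over 8 genes, and 82 cytosolic ribosomal protein genes had -0.04 and -0.18. What the number-1 libraries have in common beyond their number was not tested.

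**Figure D2:**
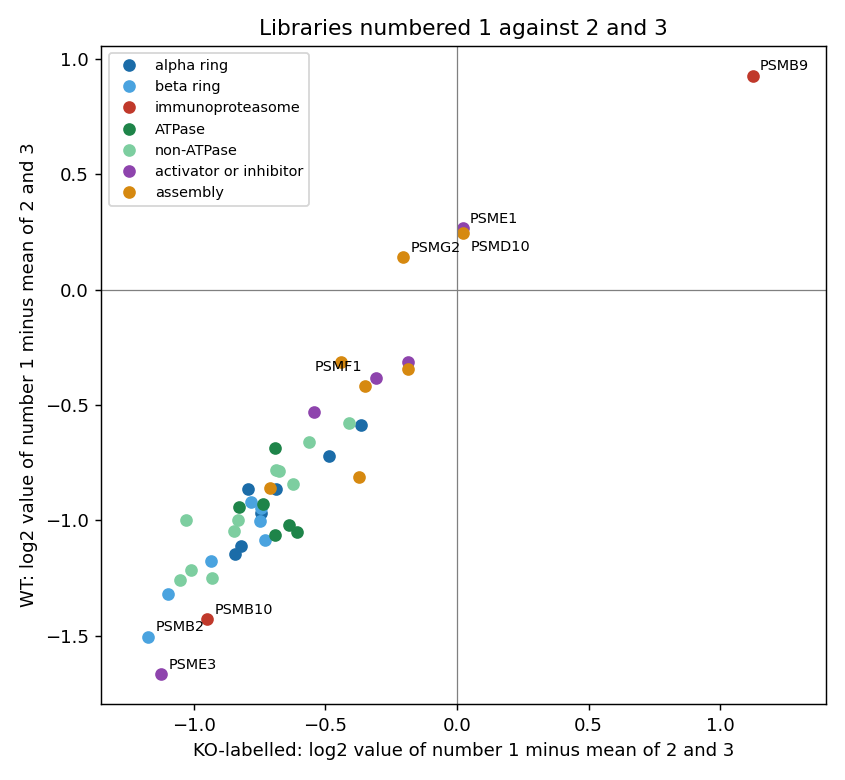
Gap of the library numbered 1 to the mean of libraries 2 and 3 (log2 scale), in KO-labelled libraries (x axis) and in WT libraries (y axis), for each of the 45 proteasome genes (points, coloured by role). 41 points lie below 0 on both axes, and PSMB9, PSME1 and PSMD10 lie above 0 on both, PSMB9 by 1.12 and 0.93 and the other two by at most 0.27.

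**Figure D3:**
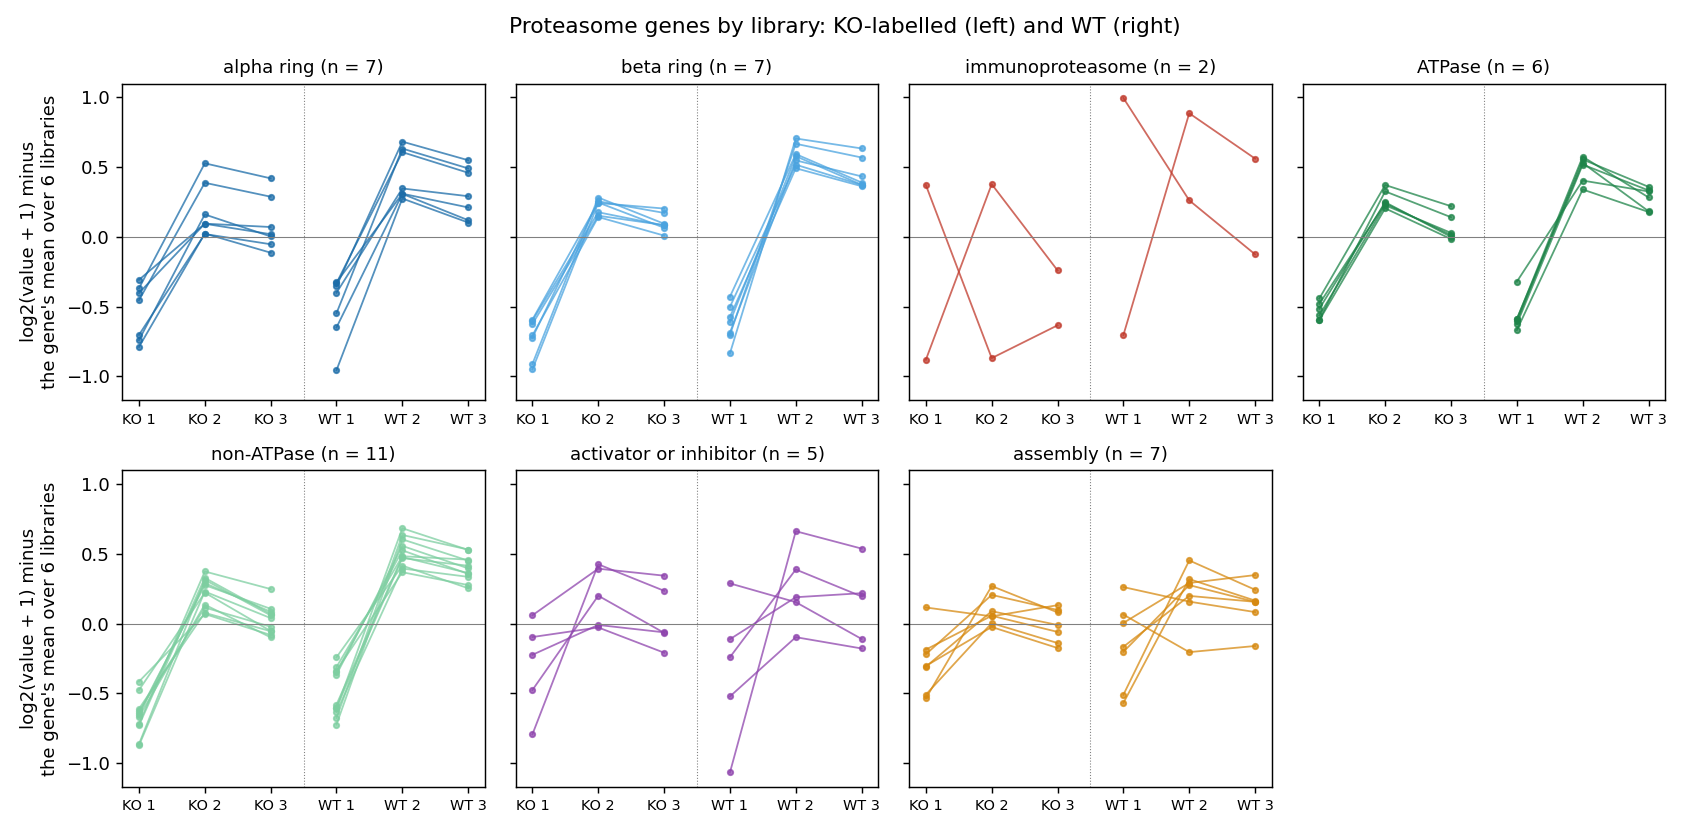
Log2(value + 1) of each proteasome gene minus its own mean over the 6 libraries, with KO-labelled libraries 1 to 3 left and WT libraries 1 to 3 right in each panel of 1 role. A line joins the values of 1 gene within a genotype, and replicate numbers have no order. The ring, ATPase and non-ATPase genes are low in both libraries numbered 1.

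Promoter windows of 250 bases before the RefSeq start (GRCh38.p14) were at hand for 39 of the 45 genes. The letters TGACNNNGC, found in sites of NFE2L1 and NFE2L2, occurred on either strand in 13 of 39 (33.3%), against 10.9% of 35116 promoter windows of the same length, and CCAAT in 18 (46.2%), against 32.0%. TTCNNNGAA, the STAT motif, occurred in 5 (12.8%), against 6.6%, and the IRF motif, GAAA repeated after a gap of 2 bases, in 5 (12.8%), against 3.0%. The shares of members are over genes, where a match in any window of a gene counts, while the shares beside them are over single windows. Each motif was counted by itself, so matches of different motifs may share bases. These 4 windows belong to members whose values follow and show the matches of 1 motif each in capitals. PSMA5, with CCAAT in 2 places, is chr1:109426449-109426698 on the minus strand. PSMD12, with TGACNNNGC, is chr17:67366578-67366827 on the minus strand. PSMB9, with TGACNNNGC on the other strand, is chr6:32853942-32854191 on the plus strand. PSMB10, with the IRF motif, is chr16:67936851-67937100 on the minus strand.
PSMA5: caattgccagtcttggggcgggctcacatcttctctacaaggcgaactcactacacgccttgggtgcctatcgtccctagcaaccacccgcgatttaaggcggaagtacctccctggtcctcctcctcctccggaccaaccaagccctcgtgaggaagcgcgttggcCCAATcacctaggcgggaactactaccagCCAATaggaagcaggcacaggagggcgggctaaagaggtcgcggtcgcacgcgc
PSMD12: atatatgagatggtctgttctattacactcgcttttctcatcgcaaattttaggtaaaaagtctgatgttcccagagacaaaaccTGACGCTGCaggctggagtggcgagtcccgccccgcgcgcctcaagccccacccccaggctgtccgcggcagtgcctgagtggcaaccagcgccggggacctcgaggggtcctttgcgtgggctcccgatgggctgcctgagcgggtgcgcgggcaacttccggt
PSMB9: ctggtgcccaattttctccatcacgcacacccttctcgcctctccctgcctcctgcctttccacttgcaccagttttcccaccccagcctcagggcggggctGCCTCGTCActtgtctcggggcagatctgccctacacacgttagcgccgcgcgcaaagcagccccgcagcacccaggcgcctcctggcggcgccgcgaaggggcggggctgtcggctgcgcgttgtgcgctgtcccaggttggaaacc
PSMB10: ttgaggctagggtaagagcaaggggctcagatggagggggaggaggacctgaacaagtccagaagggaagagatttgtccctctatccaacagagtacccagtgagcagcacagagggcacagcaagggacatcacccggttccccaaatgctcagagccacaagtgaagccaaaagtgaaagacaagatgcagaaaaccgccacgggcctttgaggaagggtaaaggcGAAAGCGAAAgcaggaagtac
Across the promoters at hand, members with TGACNNNGC had a median log2 difference of -0.20, against -0.21 for those without it. Their median gap of library 1 was -0.54 in KO-labelled and -0.53 in WT libraries, against -0.71 and -0.96 in members without the letters. A match describes the letters of the window and is not evidence of binding.

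In the alpha ring, 3 of 7 subunits fell with the block (PSMA3, PSMA5 and PSMA6), 1 rose (PSMA7) and 3 did not pass, with a median of -0.16. Of all genes tested, 20% fell and 19.7% rose with the block. PSMA5 (ENSG00000143106.13, minus strand of chromosome 1, positions 109399031 to 109426427 in GRCh38) was at 4031, 7082 and 6440.2 in KO-labelled libraries, against 5453, 11182 and 10195 in WT libraries. The KO-labelled library was lower at each number, although the groups overlapped. Its log2 difference was -0.59 (SE 0.33, or 0.07 with the block), 1.5-fold lower, with a limma adjusted p of 0.351 without and 8.32e-04 with the block. PSMA6 was at 3279, 5413 and 5145 in KO-labelled libraries, against 4240.5, 8130.0 and 7338 in WT libraries, again lower at each number with overlapping groups (-0.49, limma adjusted p = 0.395 without and 0.00162 with the block).

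PSMA7 was the 1 ring subunit that rose. It was at 4554, 8476 and 7865 in KO-labelled libraries, against 3032, 7115 and 6315 in WT libraries. Every KO-labelled library was above its same-numbered WT library, and the groups overlapped because library 1 of each was low. The log2 difference was 0.39 (SE 0.38, or 0.08 with the block), with a limma adjusted p of 0.616 without and 0.00868 with the block. PSMA7 lies on chromosome 20 (minus strand, positions 62136735 to 62143440), where the median log2 difference of all genes tested was 0.54, and that of the 77 genes tested within 5 Mb was 0.59. PSMA4, whose 111 tested neighbours had a median of 0.42, was at 7459, 13369.9 and 12476 in KO-labelled libraries, against 6516, 12654 and 11102 in WT libraries (0.15, limma adjusted p = 0.839 without and 0.0839 with the block). PSMA4 passed with the block and equal library sums (limma adjusted p = 0.0137).

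In the beta ring, 4 of 7 constitutive subunits fell with the block (PSMB1, PSMB2, PSMB6 and PSMB7) and 3 did not pass, with a median of -0.26. The share of all genes tested that fell with the block was 20%. PSMB1 and PSMB2 did not pass with the block and equal library sums (limma adjusted p = 0.101 and 0.0557). PSMB7, the trypsin-like catalytic subunit, was at 4928, 8872 and 8090.0 in KO-labelled libraries, against 5972, 12128 and 10531 in WT libraries (-0.37, SE 0.33, or 0.06 with the block). Its limma adjusted p was 0.572 without and 0.0037 with the block. PSMB6, the caspase-like subunit, was at 1352, 3092 and 2715 in KO-labelled libraries, against 1564, 4039 and 3773 in WT libraries (-0.36, limma adjusted p = 0.710 without and 0.0114 with the block). Both genes were lower in the KO-labelled library at each number, and the groups overlapped through library 1. PSMB5, the chymotrypsin-like subunit and the main target of the drug bortezomib, was at 2252, 4028 and 3554 in KO-labelled libraries, against 2281, 4776 and 4369 in WT libraries. The PSMB5 values in libraries 1 were nearly equal, and its difference of -0.19 did not pass (95% interval with the block -0.37 to -0.0024, limma adjusted p = 0.0986).

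Of the immunoproteasome subunits, PSMB9 and PSMB10 were measured, and PSMB8 is not analysed here. Both fell with the block, as did 20% of all genes tested. PSMB9 (ENSG00000240065.8, plus strand of chromosome 6 in the MHC region, positions 32844136 to 32859585) was at 282, 119 and 140.0 in KO-labelled libraries, against 435, 261 and 199.6 in WT libraries. The KO-labelled library was lower at each number, by 0.62, 1.13 and 0.51 on the log2 scale, and the groups overlapped because KO-labelled library 1 was above WT libraries 2 and 3. PSMB9 averaged 180.3 ± 88.8 in KO-labelled and 299 ± 122 in WT libraries (SD, n = 3 each). The fitted difference was -0.75 (SE 0.42, or 0.18 with the block), 1.69-fold lower, with a 95% interval of -1.76 to 0.26 without and -1.18 to -0.33 with the block (limma adjusted p = 0.35 and 0.0147).

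PSMB10 (minus strand of chromosome 16, positions 67934502 to 67937087) was at 223, 536 and 349 in KO-labelled libraries, against 253, 762 and 608 in WT libraries. It was lower in the KO-labelled library at each number, with overlapping groups and with library 1 the lowest of each. The difference was -0.50 (SE 0.49, or 0.15 with the block), 1.41-fold lower, with a limma adjusted p of 0.616 without and 0.0371 with the block. With the block and equal library sums the adjusted p was 0.0243 for PSMB9 and 0.0793 for PSMB10.

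PSMB9 and PSMB10 went opposite ways between numbers. Library 1 exceeded the mean of libraries 2 and 3 for PSMB9 by 1.12 in KO-labelled and 0.93 in WT libraries on the log2 scale, while for PSMB10 the gap was -0.95 and -1.43. PSMB9 per 100 PSMB6, the subunit it replaces, was 20.9, 3.84 and 5.16 in KO-labelled libraries, against 27.8, 6.47 and 5.29 in WT libraries. PSMB10 per 100 PSMB7 was 4.53, 6.04 and 4.31 in KO-labelled libraries, against 4.23, 6.29 and 5.78 in WT libraries. Library 1 thus stood apart in both genotypes for the PSMB9 ratio, and the genotypes overlapped in both ratios. Per kb of transcript, a rough scale because transcript length varies with the isoform, the mean level over 6 libraries was 306 for PSMB9 and 374 for PSMB10, against 2738 for PSMB5, 3235 for PSMB6 and 8592 for PSMB7.

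**Figure D4:**
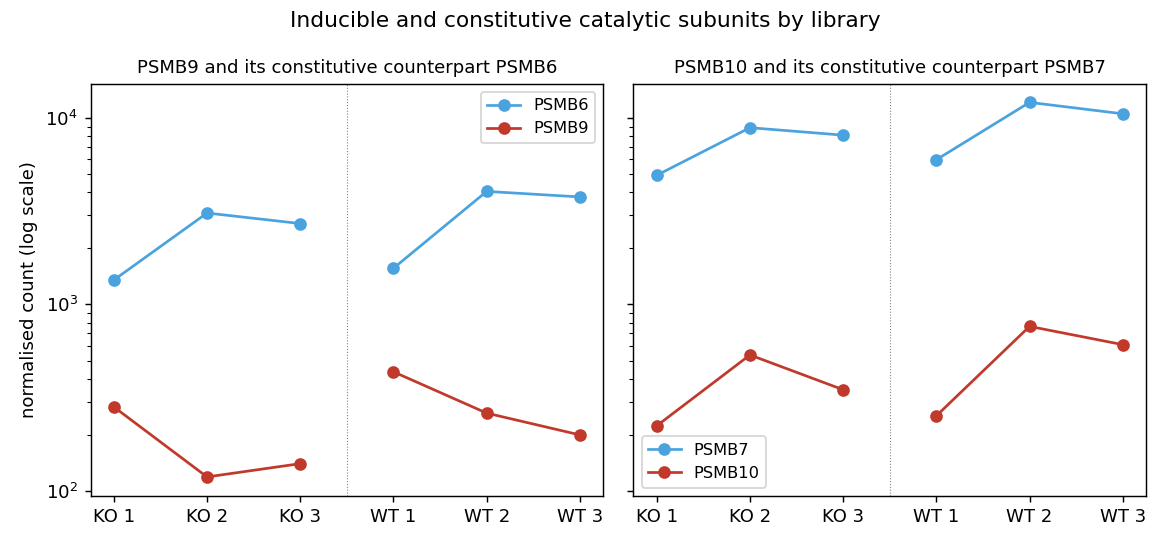
Normalised counts (log axis) of PSMB9 with PSMB6 and of PSMB10 with PSMB7 in KO-labelled libraries 1 to 3 (left) and WT libraries 1 to 3 (right). PSMB9 is highest in library 1 of each genotype (282 in KO-labelled, 435 in WT), while the other 3 genes are lowest there.

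TAP1, which shares a promoter region with PSMB9 and encodes a subunit of the peptide transporter into the endoplasmic reticulum, had the same pattern by number (named after its values were seen). It was at 696, 307 and 367 in KO-labelled libraries, against 747, 389 and 334 in WT libraries. The gap of library 1 was 1.05 in each genotype, and the difference between genotypes was -0.10 (limma adjusted p = 0.918 without and 0.579 with the block). A list of 11 regulators and neighbours of the immunoproteasome genes held 9 tested genes, of which 1 passed without the block (JAK1, higher), against 10.3% of all genes tested, and 6 with it (3 higher and 3 lower), against 39.7%. JAK1, JAK2, IFNGR1, IFNGR2 and IRF1 carry or answer the interferon-gamma signal, and B2M and the TAP genes act in antigen presentation.

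JAK1 was at 5386, 4787 and 5557 in KO-labelled libraries, against 3107, 3045 and 2967 in WT libraries, with no overlap (0.78, limma adjusted p = 0.00789 without and 2.95e-04 with the block). Without KO-labelled library 3 or WT library 3 the unblocked adjusted p of JAK1 was 0.0545 and 0.0517. The median of the tested genes within 5 Mb of JAK1 was 0.49. IFNGR1, a chain of the interferon-gamma receptor, was at 1856, 1217 and 1227 in KO-labelled libraries, against 2839, 1875 and 1998 in WT libraries (-0.65, limma adjusted p = 0.156 without and 7.46e-04 with the block). Its groups did not overlap, the nearest values being 1856 in KO-labelled library 1 and 1875 in WT library 2. IFNGR2, the other chain, was at 1797, 2049.7 and 1852 in KO-labelled libraries, against 1668, 1596 and 1424 in WT libraries, with no overlap (0.28, limma adjusted p = 0.254 without and 0.039 with the block). B2M was at 13631, 11402 and 10539 in KO-labelled libraries, against 14779, 16159.9 and 15259 in WT libraries, also with no overlap (-0.38, limma adjusted p = 0.139 without and 0.0139 with the block). TAP2 rose with the block (log2 difference 0.35, limma adjusted p = 0.332 without and 0.0119 with it), while JAK2, IRF1 and TAP1 did not pass.

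Among the 17 cap subunits with a PSMC or PSMD name, 8 fell with the block and 0 rose, with a median of -0.21. The shares over all genes tested were 20% lower and 19.7% higher. Of the 6 ATPases, which thread the substrate into the core, PSMC6 alone fell. It was at 4033, 7028 and 6036 in KO-labelled libraries, against 4882, 8069 and 7645 in WT libraries (-0.27, limma adjusted p = 0.623 without and 0.0127 with the block, and 0.0682 with the block and equal library sums). PSMC1 was at 4233, 7318 and 6379 in KO-labelled libraries, against 4108, 9187 and 8018 in WT libraries. PSMC1 was higher in the KO-labelled library at number 1 and lower at numbers 2 and 3, and its difference did not pass (-0.20, limma adjusted p = 0.785 without and 0.106 with the block). PSMC2, which lies on chromosome 7, was at 6355, 11169 and 10052 in KO-labelled libraries, against 5431, 10923 and 9769 in WT libraries (0.10, limma adjusted p = 0.897 without and 0.263 with the block). PSMC2 passed higher with the block and equal library sums (limma adjusted p = 0.0484).

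All 11 non-ATPase cap subunits with a PSMD name were lower in the KO-labelled library at each of the 3 numbers, against 34.0% of all genes tested. With the block 7 of them fell, against 20% of all genes. Of the 7, PSMD4 and PSMD7 did not pass with the block and equal library sums (limma adjusted p = 0.0580 and 0.262). The 7 were PSMD1, a scaffold of the base, PSMD4, a ubiquitin receptor, PSMD14, a deubiquitinase of the cap, and PSMD6, PSMD7, PSMD8 and PSMD12, all parts of the lid. The median was -0.29. PSMD8 was at 3621, 6323 and 5375 in KO-labelled libraries, against 4639, 8042 and 7909 in WT libraries (-0.42, SE 0.29, or 0.07 with the block, limma adjusted p = 0.451 without and 0.00325 with it). PSMD12 was at 4220.0, 9066 and 7947 in KO-labelled libraries, against 5072, 12415 and 11148 in WT libraries (-0.40, limma adjusted p = 0.638 without and 0.0036 with the block). In both, library 1 was the lowest of each genotype and made the groups overlap. PSMD14 was at 4441, 7438 and 6763 in KO-labelled libraries, against 5403, 9883 and 8794 in WT libraries (-0.36, limma adjusted p = 0.530 without and 0.00382 with the block; named after its values were seen).

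Among the 5 activator and inhibitor genes, PSMF1 rose, PSME2 and PSME4 fell with the block and 2 did not pass. Over all genes tested, 19.7% rose and 20% fell with the block. PSME4, the PA200 activator, did not pass with the block and equal library sums (limma adjusted p = 0.250). PSMF1, which encodes the inhibitor PI31, was 1 of 3 members whose groups did not overlap, against 15.2% of all genes higher without overlap and 14.7% lower. PSMF1 (ENSG00000125818.18, plus strand of chromosome 20, positions 1113263 to 1189415) was at 4466, 5629.5 and 5437 in KO-labelled libraries, against 2984, 4006 and 3787 in WT libraries. PSMF1 averaged 5178 ± 624 in KO-labelled and 3592 ± 538 in WT libraries (SD, n = 3 each). Its difference was 0.53 (SE 0.16, or 0.06 with the block), 1.45-fold higher, with a 95% interval of 0.14 to 0.92 without and 0.38 to 0.68 with the block (limma adjusted p = 0.0966 and 8.02e-04). The 64 genes tested within 5 Mb of PSMF1 had a median of 0.59, so its difference was close to that of its neighbours.

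PSME2, a subunit of the PA28 activator that interferon-gamma induces, was at 1646, 2630.2 and 2187 in KO-labelled libraries, against 1937, 2996 and 2620.3 in WT libraries. It was lower in the KO-labelled library at each number, with overlapping groups (-0.23, limma adjusted p = 0.632 without and 0.0377 with the block, and 0.192 with the block and equal library sums). Its partner PSME1 was at 1158, 1214 and 1071 in KO-labelled libraries, against 1511, 1377 and 1146 in WT libraries (-0.22, limma adjusted p = 0.457 without and 0.0994 with the block). PSME1 was lower at each number too, and the libraries numbered 1 were not low for it.

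Of the 7 assembly genes, PSMG2 and PSMG4 fell with the block and 5 did not pass, with a median of -0.13. The 2 are 28.6% of the 7, against 39.7% of all genes tested. Both were lower without overlap, as were 14.7% of all genes. PSMG2, which helps to build the alpha ring, was at 1999.8, 2427 and 2187 in KO-labelled libraries, against 2959.8, 2753 and 2614 in WT libraries (-0.33, SE 0.13, or 0.09 with the block). Its limma adjusted p was 0.175 without, 0.026 with the block, and 0.0839 with the block and equal library sums. PSMG4 was at 1566, 2235 and 2024 in KO-labelled libraries, against 2237, 2728 and 2838 in WT libraries (-0.43, limma adjusted p = 0.206 without and 0.00526 with the block). PSMD10, also called gankyrin, was at 2742, 2624 and 2774 in KO-labelled libraries, against 2647, 2197 and 2265 in WT libraries (0.20, limma adjusted p = 0.405 without and 0.0827 with the block, and 0.0209 with the block and equal library sums). The PSMD10 values overlapped between groups and were not low in the libraries numbered 1.

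The genes above 0 lay mostly on chromosomes whose genes were higher as a whole. The median log2 difference of all genes tested was 0.39 on chromosome 7 and 0.54 on chromosome 20, the highest among the chromosomes that hold members, and 5 members lie there (PSMA2, PSMC2 and PSMG3 on 7, PSMA7 and PSMF1 on 20). Those 5 had a median of 0.10, and 4 of them were above 0. The 40 members on other chromosomes had a median of -0.22, and 21 of them fell and 0 rose with the block, against 20% and 19.7% of all genes tested. With the block and equal library sums, PSMA4 on chromosome 15 and PSMD10 on chromosome X passed higher (limma adjusted p = 0.0137 and 0.0209). For the 21 members that fell, the median of the genes within 5 Mb ran from -0.37 (PSMD1) to 0.08 (PSMB10), with -0.32 for PSMB1 and -0.29 for PSMA5 but values near 0 for PSMA6 (-0.01) and PSMD12 (-0.03). PSMA1, PSMA2 and PSMC1 were below 0 (-0.13, -0.16 and -0.20) among neighbours with medians of 0.22, 0.32 and 0.33. The part of chromosome position in these differences was not tested, and DNA copy number is not analysed here.

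Of 30 genes that work with the proteasome without carrying its name, 1 passed without the block (NFE2L2, lower) and 7 with it, 6 lower and 1 higher, with a median of -0.10. The 7 are 23.3% of the list, against 39.7% of all genes tested, and the 6 lower are 20%, the same share as over all genes, so the list shows no excess of calls. NFE2L2, a stress-response activator related to NFE2L1, was at 3663, 3831 and 3835 in KO-labelled libraries, against 5538, 5090.1 and 5218 in WT libraries. The groups did not overlap, and the difference was -0.48 (SE 0.11), with a limma adjusted p of 0.0346 without and 0.0017 with the block, and 0.102 with equal library sums and no block. In the fit without the block, the limma adjusted p of NFE2L2 was 0.0849 to 0.141 when any 1 library other than WT library 1 was left out. USP14, a deubiquitinase of the cap that trims ubiquitin chains, was at 4069.8, 6758 and 6532 in KO-labelled libraries, against 6112, 12698 and 11926 in WT libraries (-0.79, limma adjusted p = 0.209 without and 3.86e-04 with the block). It was lower in the KO-labelled library at each number, and library 1 was low in each genotype.

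UBQLN2, a shuttle for ubiquitinated proteins, was at 994, 1408 and 1305 in KO-labelled libraries, against 1222, 1805 and 1745 in WT libraries (-0.36, limma adjusted p = 0.383 without and 0.012 with the block). AKIRIN2, which carries proteasomes into the nucleus, was at 2360.5, 2561 and 2566 in KO-labelled libraries, against 3248, 2756 and 2753 in WT libraries, with no overlap (-0.22, limma adjusted p = 0.351 without and 0.0956 with the block). NGLY1 and DDI2, which process NFE2L1 into its active form, and UCHL5, a deubiquitinase of the cap, also fell with the block (log2 differences -0.28, -0.31 and -0.29, limma adjusted p = 0.0153, 0.00515 and 0.0152). SEM1, a small cap subunit outside the PSM names, rose (0.21, 0.0372 with the block), and ADRM1, a ubiquitin receptor of the cap, did not pass (0.22, 0.260). Without the block the limma adjusted p of these 5 genes was 0.429 to 0.842. The median of the tested genes within 5 Mb was 0.41 for SEM1, on chromosome 7, and 0.59 for ADRM1, on chromosome 20. NFE2L1 itself was at 12425, 9138 and 10420.1 in KO-labelled libraries, against 12232, 8158 and 7311 in WT libraries (0.23, limma adjusted p = 0.603 without and 0.0934 with the block; named after its values were seen). Its libraries numbered 1 were the highest of each genotype.

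Some members share exon bases with other genes in GENCODE 29. This holds for 22 of the 45, 18 of them with a gene on the opposite strand and 8 with a gene on the same strand. The library kit was stranded, but the sources used here give no counting settings, so how reads of such pairs were assigned is unknown and these values are uncertain. The overlap is longest for PSMC1, which shares 4671 of its 6161 exon bases with NRDE2 on the opposite strand. PSMG4 shares 1388 bases with SLC22A23 on the opposite strand. On the same strand, PSMD9 shares 1307 bases with AC069503.2, PSMA6 919 with AL121594.1, PSMA1 814 with AC018523.2 and PSMA2 781 with AC010132.3. PSMB10 shares 644 with AC040162.1 on its own strand. PSMB9 shares 174 with PSMB8-AS1 on its own strand and 139 with PSMB8 on the opposite strand. Pseudogene copies elsewhere in the genome can also take reads of a subunit gene, and the levels are uncertain to that extent.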

How the data were processed

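RNA was measured in 6 K562 libraries, 3 labelled ACK KO and 3 labelled WT, made with a stranded poly(A) kit per the labels. Per gene, the deposited values hold a signal, namely normalised counts; they are not whole reads, so no count model was used. The submitters' processing notes name GRCh38, R 3.6.1, DESeq2 1.26.0, Salmon 1.1.0, STAR 2.7.2b, SAMtools and FastQC 0.11.7, without roles. A gene entered the test if 3 or more libraries reached a value of 10, which 16658 of 19498 genes did. The test was limma 3.58.1 (R 4.3.3, intensity trend) on values with a pseudocount of 1 in log2, with Benjamini-Hochberg adjustment. The fit was tested on simulated data that carried the replicate effects of these libraries, so that test cannot show whether blocking by number is right.

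The replicate number served as a block in a second fit, because deviations of same-numbered libraries correlated above 0.1 in all 3 pairs (0.699, 0.521 and 0.342), by number alone, not by a stated shared source. Libraries numbered 2 and 3 also correlated above 0.1 across numbers (0.281 and 0.257). Positions, biotypes and lengths came from GENCODE 29. Members, lists and alternatives were chosen with earlier results of these data known. Values in each library are given for the catalytic subunits, the 2 members with the largest difference per role, TNK2 and up to 4 genes per list by smallest p, and the choice of other named genes followed a look at their values. PSMA8, PSMB8 and PSMB11 are not analysed here. Of the regulator list, 1 gene is counted but not reported here by name.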

Additional observations from a re-analysis of the deposited data

How the results depend on the processing

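The 3 libraries of each label limit what can be called, and depth cannot be weighed since counts are not at hand. Of 28 named genes under 17 alternatives each, 355 results kept their direction and their side of the threshold, 99 newly passed, 9 no longer passed and 13 changed sign.

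With the replicate number as a block, from the pairing of the libraries, limma called 6612 of all genes against 1721 without it, 21 proteasome genes lower, 2 higher, 8 core, 2 immunoproteasome, 8 cap and 5 other members, 7 partners and 6 regulators. Equal library sums with no block moved all calls to 1056 higher and 657 lower (61.6% higher), against 894 and 827 (51.9%), and put the calls at 1 member higher, 1 activator, inhibitor or assembly gene, and 0 partners. With no intensity trend 0 partners passed.

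Leaving out 1 library gave 726 to 2183 calls of all genes (fewest without KO-labelled library 3, most without WT library 1), 0 to 2 partners and 0 to 1 regulators, 0 members in either direction, and a TNK2 difference of -0.32 to -0.05. The difference ran from -0.14 to 0.41 for PSMA4, -0.52 to 0.06 for PSMB5, -0.80 to 0.01 for PSMB6, -0.56 to 0.03 for PSMC1, -0.21 to 0.35 for PSMC2 and -0.45 to 0.25 for TAP1. PSMB5, PSMB6 and PSMC1 were above 0 without KO-labelled library 1 (0.06, 0.01 and 0.03), and PSMB5 and PSMC1 without WT library 2 (0.01 and 0.02). PSMA4 and PSMC2 were below 0 without WT library 1 (-0.14 and -0.21) or KO-labelled library 2 (-0.01 and -0.06).

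The remaining settings were chosen after seeing the data, apart from the first. Without both libraries numbered 1, 4731 genes were called, with 16 members lower, 1 higher, 8 core, 1 immunoproteasome, 6 cap and 2 other members, 7 partners and 4 regulators. With the block and the pair numbered 1, 2 or 3 left out, 7906, 4686 and 4582 genes were called, with 35, 12 and 9 members lower and 4, 2 and 2 higher. Those were 14, 5 and 4 core, 2, 0 and 1 immunoproteasome, 14, 6 and 4 cap and 9, 3 and 2 other members, with 15, 2 and 3 partners and 6, 2 and 4 regulators. TAP1 was at 0.02 with pair 2 left out. With the block and equal library sums, 6572 genes were called (63.8% higher, against 49.5% with the block alone), with 12 members lower, 5 higher, 7 core, 1 immunoproteasome, 6 cap and 3 other members, 10 partners and 6 regulators. Of the 23 members called with the block, 14 kept the call there, 16 without both libraries numbered 1, and 23, 14 and 11 with pair 1, 2 or 3 left out. The causes were not tested.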
